A study of Mus musculus with 2 samples.

Results

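Plasmacytoid dendritic cells (DCs) of the pancreatic islets were described in 2 single-cell libraries from mice of the diabetes-prone NOD strain. They were chosen from raw counts of unique molecular identifiers (UMIs), each UMI standing for 1 captured transcript. A barcode qualified with at least 500 detected genes, at most 10% mitochondrial UMIs, at least 2 Siglech UMIs and at least 1 UMI of Tcf4 or Bst2. It could hold at most 2 UMIs of complement C1qa, C1qb and C1qc in sum, no UMI of Cd3d, Cd3e or Cd3g, and at most 1 Cd79a UMI. This rule found 89 of 22466 filtered barcodes. The WT NOD library, from NOD females aged 12 weeks with the genotype NOD, gave 50 of 12252 barcodes (0.408%, 95% exact binomial interval 0.303 to 0.538%). The library labelled NOD.Cxcl16-/-, from NOD females of the same age with the chemokine gene Cxcl16 deleted, gave 39 of 10214 barcodes (0.382%, 0.272 to 0.522%). Both libraries held live leukocytes sorted as CD45-positive and CD31-negative from hand-picked, dispersed islets, and were made with 10x Genomics chemistry that reads transcript 3' ends. Each group has 1 library and the labels do not give the number of animals behind it. No test between the groups was therefore possible. All intervals cover counting error only.

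Plasmacytoid DCs are round, lymphoid-looking cells that sense viral and self nucleic acids in endosomes through TLR7 and TLR9 and can then release large amounts of type I interferon. The E protein TCF4, also called E2-2, sets and keeps their identity, against the inhibitor ID2 that favours conventional DCs. In NOD mice, plasmacytoid DCs and interferon have been linked to the early phase of islet autoimmunity, and plasmacytoid DCs have also been given a tolerogenic role.

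The libraries held 13859 and 10554 barcodes and 93553185 and 98681133 UMIs. The WT NOD plasmacytoid DCs had 822 to 21446 UMIs, with a median of 7796. In the library labelled NOD.Cxcl16-/- they had 1836 to 21920, with a median of 8534. Their UMIs summed to 436613 and 359504, so 1 UMI was worth 2.29 and 2.78 CPM, that is, UMIs scaled to a sum of 1000000 per group, the unit of level used below. In 6 and 4 barcodes the depth was above 2 times the library's median for these cells, and these few held 26.9% and 22.9% of the UMIs. In 5 and 3 barcodes it was below 0.5 times the median. The remaining 39 and 32 barcodes are called the core barcodes. A doublet score that marks a preset share of each library marked 8 of the 50 WT NOD plasmacytoid DCs, 4 of them among the 6 deepest, and none of the other 39. The libraries shared 45 barcode sequences, 1 of them a plasmacytoid DC of the library labelled NOD.Cxcl16-/-.

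Cxcl16 (mouse build GRCm38, chr11:70453983-70459984, minus strand) did not separate the libraries. Its level over all barcodes was 103 CPM in the WT NOD library and 102 CPM in the library labelled NOD.Cxcl16-/-. A 3' tag can be read from a transcript whose coding part is deleted, so this checks nothing about the label. Among plasmacytoid DCs, 7 of 50 and 5 of 39 barcodes held Cxcl16, with 36 and 23 UMIs. Of these, 29 and 14 UMIs lay in the deepest barcodes, and 5.85% and 5.76% of T cells held a Cxcl16 UMI too. Its receptor gene Cxcr6 gave 1 and 0 UMIs. Little Cxcl16 or Cxcr6 transcript was therefore counted in these cells in either library.

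Promoter sequences are shown for 5 genes, because TCF4 and other E proteins read E-box motifs and Bst2 is a classic interferon-stimulated gene. Siglech and Bst2 are in the rule, and Klk1, Ccr9 and Ptcra are among the 25 genes most above other populations. Each sequence is the 250 bases before the RefSeq start site, 5' to 3' on the gene's strand, build GRCm38.p6. The windows are chr7:55767934-55768183 (plus) for Siglech, chr7:44225110-44225359 (plus) for Klk1, chr9:123766961-123767210 (plus) for Ccr9, chr17:46763713-46763962 (minus) for Ptcra and chr8:71537473-71537722 (minus) for Bst2. Capitals mark the E-box letters CAGCTG, the E-box letters CAGGTG, which read CACCTG on the other strand, and the interferon-response letters GAAANNGAA, each searched on both strands. The 5 genes were chosen with their motifs known.
Siglech: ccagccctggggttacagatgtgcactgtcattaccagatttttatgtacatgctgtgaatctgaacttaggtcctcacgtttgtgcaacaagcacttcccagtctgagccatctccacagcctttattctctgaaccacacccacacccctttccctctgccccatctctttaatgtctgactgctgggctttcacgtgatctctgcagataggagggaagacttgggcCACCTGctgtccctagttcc
Klk1: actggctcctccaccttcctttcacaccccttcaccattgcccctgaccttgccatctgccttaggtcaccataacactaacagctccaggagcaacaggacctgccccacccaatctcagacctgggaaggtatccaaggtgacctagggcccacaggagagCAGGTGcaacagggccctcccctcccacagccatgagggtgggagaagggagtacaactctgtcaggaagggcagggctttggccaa
Ccr9: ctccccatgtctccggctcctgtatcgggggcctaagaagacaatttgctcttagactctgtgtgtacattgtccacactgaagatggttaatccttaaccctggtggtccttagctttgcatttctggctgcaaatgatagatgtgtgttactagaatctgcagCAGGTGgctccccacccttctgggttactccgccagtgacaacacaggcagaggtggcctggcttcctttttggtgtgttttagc
Ptcra: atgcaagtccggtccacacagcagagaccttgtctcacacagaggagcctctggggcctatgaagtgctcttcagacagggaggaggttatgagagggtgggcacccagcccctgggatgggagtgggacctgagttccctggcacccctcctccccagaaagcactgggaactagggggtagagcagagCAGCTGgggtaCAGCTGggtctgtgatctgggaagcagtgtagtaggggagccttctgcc
Bst2: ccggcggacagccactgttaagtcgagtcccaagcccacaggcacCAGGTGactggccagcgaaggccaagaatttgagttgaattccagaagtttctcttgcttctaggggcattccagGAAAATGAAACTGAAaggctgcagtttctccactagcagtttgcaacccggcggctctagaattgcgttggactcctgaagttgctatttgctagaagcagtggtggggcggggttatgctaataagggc
Siglech held 1 CAGGTG motif whose first base lies at position -20 from the start site, Klk1 held 1 at -87 and Ccr9 held 1 at -85. Ptcra, which encodes the pre-T-cell receptor alpha chain and is a known target of E proteins, held 2 CAGCTG motifs, at -60 and -49. In Bst2, 2 GAAANNGAA motifs overlapped, at -130 and -124, with 1 CAGGTG motif at -205. Of 32851 RefSeq windows of this length, 27.7% held either E-box and 7.13% held GAAANNGAA. For the 122 genes at least 2-fold above every other population described below, 98 genes matched the RefSeq table, and of their 135 windows 28.9% held either E-box and 8.15% held GAAANNGAA. The shares in that gene set were thus near those of all windows. Among the 25 genes most above other populations, 16 matched, and 11 of their 19 windows (57.9%) held either E-box, a small number of windows. A match is a description of letters and not a bound site.

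The rule's own genes set the entry to the group, and their values are given as a description. In the WT NOD library, Siglech, a sialic-acid-binding receptor of mouse plasmacytoid DCs, had a lowest, median and highest UMI count per cell of 2, 11 and 27. In the library labelled NOD.Cxcl16-/- these were 2, 12 and 27. Most members lay far from the limit, with 40 of 50 and 33 of 39 barcodes at 6 or more Siglech UMIs. Only 4 and 1 barcodes had exactly 2 Siglech UMIs, and 0 and 1 of these held the chemokine receptor gene Ccr9. With 3 to 5 Siglech UMIs, 2 of 6 and 5 of 5 held Ccr9, at median depths of 2069.5 and 6358 UMIs. With 6 or more, 40 of 40 and 32 of 33 held it. All WT NOD members without Ccr9 thus lay below 6 Siglech UMIs. Just outside, 12 and 14 barcodes met the other conditions with 1 Siglech UMI, and 5 and 4 of these held Ccr9. Many Siglech-positive barcodes were turned away by the other conditions. Of 161 and 136 filtered barcodes with at least 2 Siglech UMIs, 102 and 87 held a Cd3 UMI, with median depths of 22592 and 28749 UMIs.

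Ccr9 and Runx2, the markers of plasmacytoid DCs that the rule did not use, were found in most members. Ccr9, the receptor for the gut and thymus chemokine CCL25, had 0, 6 and 27 UMIs as lowest, median and highest per cell in the WT NOD library and 0, 9 and 35 in the other. Its summed level was 806 CPM (724 to 895) and 1010 CPM (909 to 1119), against 19.4 and 23.9 CPM in DCs gated on Cd209a or Clec10a, the highest of 7 other populations gated from UMIs. A Ccr9 UMI was present in 84.0% and 97.4% of plasmacytoid DCs and in 2.66% and 3.39% of T cells, whose median depths were 4253.5 and 4880.5 UMIs. After thinning each cell to 2000 UMIs the shares were 69.6% and 76.3% against 1.12% in T cells of both libraries, over 46 and 38 plasmacytoid DCs, with 4 and 1 shallower cells left out. Runx2, a transcription factor needed for plasmacytoid DCs to leave the bone marrow, stood at 524 and 442 CPM against 165 and 196 CPM in T cells. All 5 markers (Siglech, Tcf4, Bst2, Ccr9, Runx2) were found in 39 of 50 and 34 of 39 cells, and Ccr9 or Runx2 in 46 of 50 and 39 of 39. Ccr9 was at 0 in 8 of 50 and 1 of 39 cells, Runx2 at 0 in 6 and 4, and 40 and 34 cells held both.

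**Figure D1:**
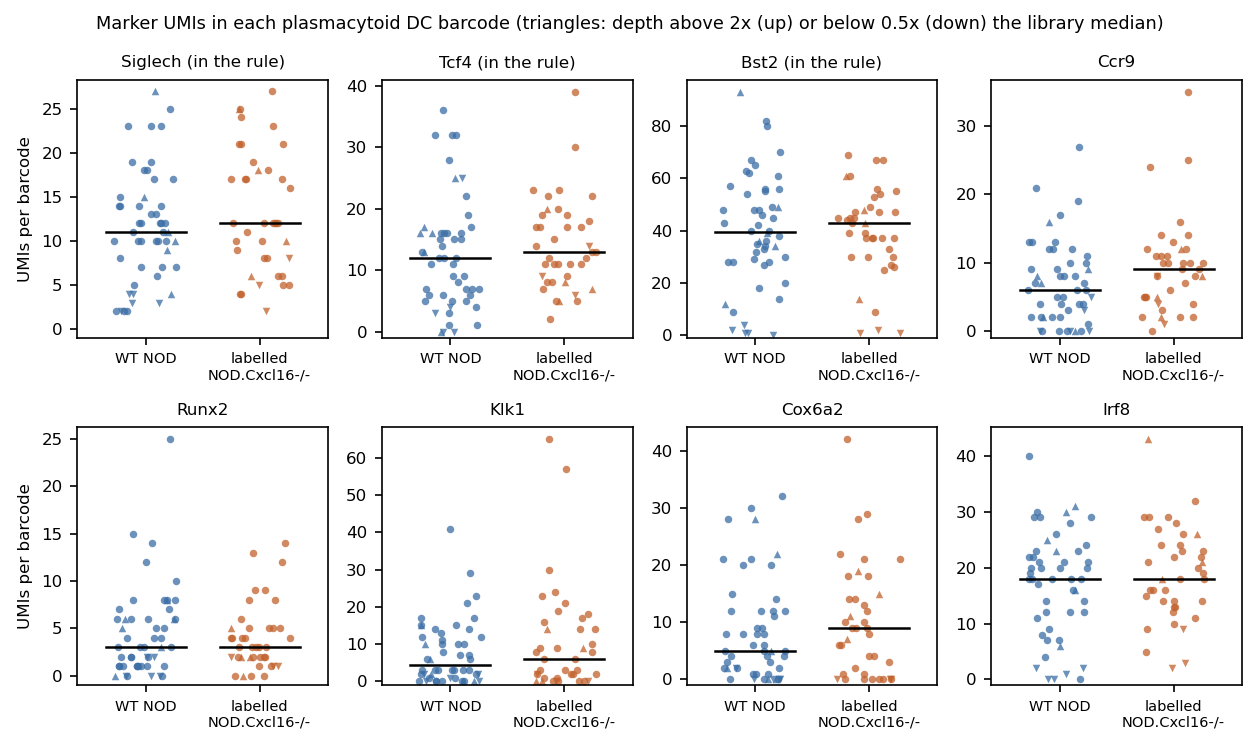
UMIs per barcode (vertical axis) of 8 marker genes in each plasmacytoid DC of the WT NOD library (50 points) and the library labelled NOD.Cxcl16-/- (39 points), with the median as a bar and triangles for barcodes of outlying depth. The medians of Siglech are 11 and 12, and those of Ccr9 are 6 and 9.

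A list of 39 further genes tied to plasmacytoid DCs had 32 members past a level filter, a mean of the libraries of at least 100 CPM. In both libraries, 30 of these 32 were higher in plasmacytoid DCs than in any of the other 7 populations, and 22 were at least 2-fold higher. Over all 1726 genes past the filter, the plasmacytoid DCs were highest for 435 (25.2%) and at least 2-fold higher for 122 (7.07%). Since transcripts chose the cells, and the list was made with earlier results of these data known, this contrast is a description. Klk1, a secreted kallikrein protease, had a lowest, median and highest count of 0, 4.5 and 41 UMIs in the WT NOD library and 0, 6 and 65 in the other. Its level was 877 and 1163 CPM, with no other population above 1.84 CPM. Its neighbour Klk1b27 stood at 199 and 184 CPM, and the split of reads between these near-identical genes is uncertain. Cox6a2, a respiratory-chain subunit otherwise known from heart and skeletal muscle, had 969 and 1074 CPM against at most 21.7 CPM elsewhere. The uncharacterised transcript Gm21762 had 882 and 860 CPM and was near 0 in the other 7 populations. The glutamate receptor Grm8 was at 442 and 473 CPM, the muscle calcium pump Atp2a1 at 183 and 192 CPM and the TGF-beta family ligand Lefty1 at 252 and 170 CPM. Lifr, the leukaemia inhibitory factor receptor, was at 174 and 178 CPM.

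**Figure D2:**
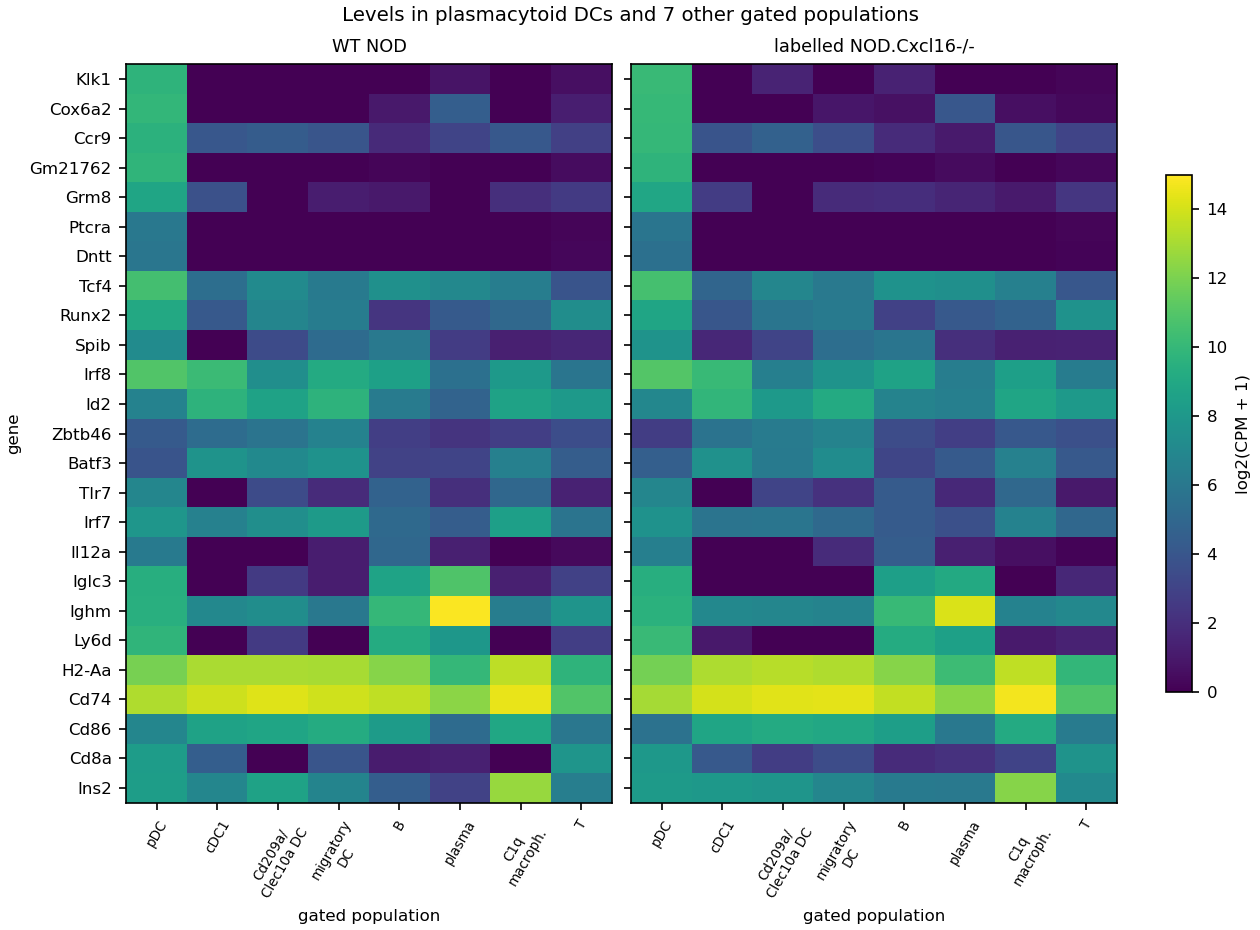
Levels as log2(CPM + 1) (colour) of 25 genes (rows) in plasmacytoid DCs and 7 other gated populations (columns) of each library. Klk1, Cox6a2, Gm21762 and Ccr9 are high in the first column and low elsewhere, while the class II genes H2-Aa and Cd74 are higher in the other DCs and macrophages.

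Several transcription factors of the lineage were high, at similar levels in the libraries. Tcf4, which is in the rule and is given as a description, stood at 1436 and 1530 CPM against 187 and 199 CPM in B cells, which also use it. Irf8, required by plasmacytoid and type 1 conventional DCs, had a lowest, median and highest count of 0, 18 and 40 UMIs in the WT NOD library and 2, 18 and 43 in the other. Its level was 1961 and 2042 CPM, against 1219 and 1108 CPM in type 1 DCs. Spib, an Ets factor of plasmacytoid DCs and B cells, stood at 151 and 206 CPM against 66.2 and 56.4 CPM in B cells. Bcl11a, an upstream activator of the plasmacytoid program, stood at 394 and 453 CPM, and Zeb2, which represses Id2, at 328 and 389 CPM. The factors of conventional DCs were low. Id2 stood at 101 and 120 CPM, and at 28.8 and 74.1 CPM in core barcodes, against 834 and 951 CPM in type 1 DCs. Batf3, which type 1 DCs need, was at 13.7 and 22.3 CPM against 208 and 192 CPM there. Of 30 listed factors, 16 passed the level filter, none differed 2-fold between the libraries, beside 17 (0.985%) of all 1726 genes past the filter, and their median log2 ratio was 0.10, beside -0.01 over all 1726. In both libraries plasmacytoid DCs were highest for 7 of the 16 and at least 2-fold higher for 4. Over all 1726 genes these shares were 25.2% and 7.07%.

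Genes of nucleic-acid sensing were counted, and few interferon UMIs were. Tlr7, the endosomal sensor of single-stranded RNA, was at 117 CPM in both libraries, with 0, 1 and 4 and 0, 1 and 3 UMIs as lowest, median and highest per cell. Macrophages, the next highest population, had 31.3 and 32.5 CPM. Unc93b1, which escorts these receptors to endosomes, was at 497 and 448 CPM, and Irf7, the factor that drives interferon-alpha genes, at 236 and 197 CPM. Irf7 was below the highest other population in at least 1 library, with a log2 ratio of -0.60 in the lower library. Tlr9, the DNA sensor, gave 1 and 5 UMIs. The 14 interferon-alpha genes in the files gave 0 UMIs in both groups, which allows a summed level of up to 6.87 and 8.34 CPM, and a share of cells with a UMI of up to 6.0% and 7.69%. This limits cells with a UMI, not cells expressing the genes. The same genes gave 87 and 170 UMIs over all barcodes of the libraries. Ifnb1 gave 1 UMI in each group, beside 618 and 1643 UMIs over all barcodes. Interferon-lambda genes gave 0 UMIs. Ifnk, a type I interferon best known from keratinocytes, gave 6 and 5 UMIs in 5 and 4 cells. Of 11 sensing genes past the level filter, none differed 2-fold between libraries, and the median log2 ratio was -0.09. Over all 1726 genes 17 (0.985%) differed 2-fold, a share at which a list this short would seldom hold any. In both libraries plasmacytoid DCs were highest for 4 of the 11 and at least 2-fold higher for 2. Over all 1726 genes these shares were 25.2% and 7.07%. The whole list summed to 4173 and 4192 CPM, against 4713 and 4987 CPM in plasma cells.

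Interferon-stimulated genes were uneven between cells. Of 58 such genes in the files, 13 passed the level filter, with a median log2 ratio of -0.09 and 1 past 2-fold, Ifi27l2a, beside 17 of all 1726 genes (0.985%). Ifi27l2a, a small membrane protein induced by interferon, gave 511 CPM (446 to 582) for the WT NOD group and 220 CPM (174 to 274) for the other. Per cell it had 0, 1 and 39 UMIs and 0, 0 and 35, so the libraries overlapped. T cells of the same libraries showed 1926 and 1172 CPM, and macrophages 1257 and 363 CPM, so a lower level in the library labelled NOD.Cxcl16-/- was not limited to plasmacytoid DCs. Free RNA gives each cell type some of these UMIs, and its part in the result was not tested. Irf7 was at 0 in 17 of 50 and 20 of 39 cells and reached 22 and 17 UMIs in single cells. Isg15, a ubiquitin-like interferon-induced protein, was found in 10 and 8 cells. In core barcodes the Spearman correlation of Irf7 with Ifi27l2a was 0.10 (39 cells) and -0.06 (32 cells), and that of Irf7 with Isg15 was 0.11 and 0.45. The cells of a library share its preparation and differ in depth, and these values are descriptions. Bst2, which is in the rule, was at 4551 and 4275 CPM.

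Some features of the B lineage, a known trait of plasmacytoid DCs, were present, with few or no UMIs of Pax5, Ebf1 and Ms4a1. Of 29 listed genes in the files, 10 passed the level filter. In both libraries plasmacytoid DCs were highest for 5 of these and at least 2-fold higher for 2. Over all 1726 genes these shares were 25.2% and 7.07%. The list summed to 5467 and 5243 CPM, against 19336 and 18862 CPM in B cells. Iglc3, a lambda light-chain constant gene, had a lowest, median and highest count of 0, 5.5 and 14 UMIs in the WT NOD library and 0, 5 and 20 in the other. It was found in 45 of 50 and 37 of 39 plasmacytoid DCs against 3.03% and 1.13% of T cells. Its level of 673 CPM (599 to 755) and 687 CPM (604 to 778) was above that of B cells, 419 and 356 CPM. After thinning, the shares were 69.6% and 71.1% against 1.05% and 0.434% in T cells. Igkc, the kappa constant gene, did not stand out in this way. At 937 and 673 CPM it was below its T-cell level of 1108 CPM in the WT NOD library and above that of 506 CPM in the other. It reached 342044 and 291286 CPM in plasma cells. Single plasmacytoid DCs held from 0 to 60 and from 0 to 58 Igkc UMIs. Whether these UMIs come from plasmacytoid DCs or from other cells was not tested. Iglc2, the neighbouring lambda gene, was found in 16 and 11 cells only. Blnk, the adaptor that links the B-cell receptor to downstream kinases, was at 518 and 556 CPM against 337 and 309 CPM in B cells. Fcrla, an intracellular Fc-receptor-like protein, was at 224 and 253 CPM against 218 and 213 CPM. Dntt, the terminal transferase that adds bases at antigen-receptor joints, was at 57.3 and 44.5 CPM in 14 and 8 cells. Pax5 and Ebf1 gave 1 UMI each in the WT NOD group and 0 in the other, and Ms4a1, Rag1 and Rag2 gave 0 in both. Cd79a was limited by the rule. Lambda constant transcripts may be mapped imperfectly in NOD mice, whose immunoglobulin loci differ from the reference strain.

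Class II genes were below those of the other DCs and macrophages, and their summed level was 22613 and 20011 CPM in the libraries. In core barcodes it was 17686 and 16355 CPM, so the barcodes of outlying depth raised it. H2-Aa, the alpha chain of the class II molecule I-A, had 0, 23 and 215 UMIs and 1, 25 and 226 UMIs as lowest, median and highest. The highest counts lay in barcodes of 21446 and 21785 UMIs, the first of them marked by the doublet score. Over all barcodes the H2-Aa level was 3942 and 3794 CPM, against 8602 and 8997 CPM in type 1 DCs, 11487 and 12352 CPM in macrophages, and 874 and 959 CPM in T cells. Cd74, the invariant chain that guards class II molecules on their way to the endosome, was at 9406 and 8225 CPM against 22976 and 27124 CPM in macrophages. Cd86, a costimulatory ligand, was at 119 and 50.1 CPM, and in core barcodes at 22.4 and 33.3 CPM, against 399 and 442 CPM in type 1 DCs. The higher Cd86 level of the WT NOD group therefore sat mostly in barcodes of outlying depth. Ccr7, which guides mature DCs to lymph nodes, gave 14 and 12 UMIs. Of 10 class II genes past the filter none differed 2-fold, with a median log2 ratio of -0.20 over all barcodes and -0.13 in core barcodes. Of 14 class I genes none did, with a median of -0.12. Over all 1726 genes past the filter, 17 (0.985%) differed 2-fold. The class I list was not below other DCs throughout. It summed to 12077 and 11307 CPM, against 11456 and 12223 CPM in type 1 DCs and 10453 and 10786 CPM in Cd209a or Clec10a DCs.

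Of the cytokine genes, Il12a was counted in plasmacytoid DCs and B cells but hardly in other DCs. Il12a, the p35 subunit shared by interleukin-12 and interleukin-35, was at 68.7 CPM (46.4 to 98.1) and 86.2 CPM (58.6 to 122), in 16 cells of each library, with at most 6 UMIs in any cell. B cells had 31.6 and 20.3 CPM, type 1 DCs had 0, and 0.184% and 0.0941% of T cells held a UMI. Il12b, the p40 subunit that completes interleukin-12, gave 7 and 4 UMIs, each time in 1 cell. Ccl4, an inflammatory chemokine, had 0, 1.5 and 42 and 0, 4 and 76 UMIs per cell, for 710 and 1054 CPM against 2974 and 5159 CPM in macrophages. Among homing receptors, Ccr2 was at 261 and 270 CPM and Cxcr3 at 98.5 and 94.6 CPM. Flt3, the receptor for the main DC growth factor, was at 192 and 175 CPM. Il7r, the interleukin-7 receptor, was at 573 and 448 CPM against 156 and 193 CPM in T cells. Ifnar1 and Ifnar2, the chains of the type I interferon receptor, were at 181 and 195 CPM and at 699 and 798 CPM. None of 13 cytokine-receptor genes past the filter differed 2-fold, beside 17 (0.985%) of all 1726 genes, and their median log2 ratio was 0.11. Gzmb, which human plasmacytoid DCs are known to express, gave 0 UMIs in both groups, up to 6.87 and 8.34 CPM at this depth. Tyrobp, the adaptor DAP12 that pairs with Siglec-H and dampens interferon output, was at 3930 and 3797 CPM. Over all barcodes none of 13 receptor-signalling genes past the filter differed 2-fold, beside 17 (0.985%) of all 1726 genes. In core barcodes 3 of 13 were at least 2-fold lower in the library labelled NOD.Cxcl16-/-, beside 13 (0.754%) of 1725 genes.

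Secretory genes had a median slightly above 0. Of 36 listed genes of the endoplasmic reticulum and secretory path, 30 passed the filter, 1 was at least 2-fold higher and none 2-fold lower, beside 6 (0.348%) and 11 (0.637%) of all 1726 genes. The log2 ratios ran from -0.88 to 1.01 with a median of 0.20, and 0.27 in core barcodes, beside -0.01 over all genes. The list summed to 7187 and 8277 CPM in type 1 DCs and 4980 and 5548 CPM in T cells, and was higher in the library labelled NOD.Cxcl16-/- in all 7 other populations too. The 2-fold gene was Rrbp1, a ribosome-binding membrane protein of the rough endoplasmic reticulum. In the WT NOD library it had 0, 2 and 7 UMIs as lowest, median and highest per cell, and 0, 5 and 13 in the other. Its level was 250 CPM (205 to 301) and 503 CPM (433 to 582), and the ratio of these was 2.02 (1.58 to 2.58). The cells of the libraries overlapped, and 39 of 50 and 36 of 39 held it. Rrbp1 was also higher in other populations of that library, at 150 and 290 CPM in Cd209a or Clec10a DCs and at 343 and 461 CPM in macrophages. The chaperone Hspa5 was at 1102 and 1285 CPM and Xbp1, the driver of secretory expansion, at 289 and 387 CPM. Of the lysosomal genes, 21 passed the filter and none was past 2-fold, beside 17 (0.985%) of all 1726 genes. Their median log2 ratio was -0.08. Ctsl, a cathepsin, was at 1612 and 1232 CPM against 148 and 229 CPM in macrophages, and Pld4, an endosomal nuclease, at 660 and 595 CPM.

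The cells varied most in Ly6d, lambda chain Iglc2, Ccl4, Irf7 and Cd8a. Spread was ranked over 693 genes with at least 60 UMIs, in core barcodes, by the squared coefficient of variation beyond counting noise, taking the lower library, and these 5 genes had values of 2.69, 2.84, 2.35, 2.29 and 1.94 in the order named. Ly6d, a surface protein of B-cell and plasmacytoid precursors, had 0, 0 and 64 UMIs as lowest, median and highest per cell in the WT NOD library and 0, 2 and 97 in the other. It was at 0 in 19 of 39 and 13 of 32 core barcodes, while 9 and 11 core barcodes had at least 10 UMIs. The split is a description chosen from these counts. Ly6d-high cells were set beside the 21 and 15 core barcodes with at most 1 UMI, whose median depths of 7738 and 8534 UMIs were near the 8244 and 8360 UMIs of the Ly6d-high cells. Cd8a, the CD8 alpha chain that some plasmacytoid DCs carry, was at 805 CPM in the Ly6d-high and 260 CPM in the Ly6d-low cells of the WT NOD library. In the other library it was at 575 and 97.6 CPM. Per cell it had 0, 6 and 22 UMIs as lowest, median and highest in Ly6d-high and 0, 0 and 15 in Ly6d-low cells, then 0, 1 and 21 and 0, 0 and 8, so the cells overlapped. In the Ly6d-high cells, 2 cells held 42 of the 65 Cd8a UMIs of the WT NOD library, and 2 held 39 of the 53 in the other. Ly6a, which encodes Sca-1, showed 4841 and 1897 CPM, then 3371 and 992 CPM, but 2 cells held 247 of the 391 UMIs of the 9 Ly6d-high cells, and 2 held 206 of the 311 in the other library. The median Ly6a counts were 13 and 11 UMIs, then 16 and 5, and Ly6d and Ly6a correlated at 0.09 and 0.27 (Spearman, core barcodes). The C-type lectin Cd209d ran the other way, at 86.7 CPM in Ly6d-high and 761 CPM in Ly6d-low cells, then 119 and 415 CPM. Grm8 did as well, at 161 and 628 CPM, then 228 and 594 CPM. Over 1726 genes, 9 (0.521%) were at least 2-fold higher in Ly6d-high cells in both libraries and 8 (0.463%) at least 2-fold lower in both, beside 9 (0.521%) that differed 2-fold in opposite directions. The filter here was a mean of at least 100 CPM over the Ly6d-high and Ly6d-low groups of both libraries, without Ly6d itself. The genes counted are thus not the same set as those past the level filter elsewhere. The number repeating in direction, 17, is thus to be read against 9 that did not. Ly6d and Cd209d correlated at -0.52 and -0.60 (Spearman, 39 and 32 core barcodes), and Ly6d and Cd8a at 0.36 and 0.44.

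Class II genes varied together from cell to cell. In core barcodes Cd74 and H2-Aa correlated at 0.88 and 0.70 (Spearman), Cd74 and H2-Eb1 at 0.89 and 0.57, and H2-Ab1 and H2-Eb1 at 0.89 and 0.79. The summed share of Cd74, H2-Aa, H2-Ab1 and H2-Eb1 had a lowest, median and highest value of 0%, 1.27% and 3.72% of a cell's UMIs in the WT NOD library. In the other library these were 0.353%, 1.30% and 4.14%. Klk1 and Klk1b27 correlated at 0.65 and 0.46, and the immediate-early genes Fos and Jun at 0.45 and 0.58. All of these pairs share the depth of their cell.

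**Figure D3:**
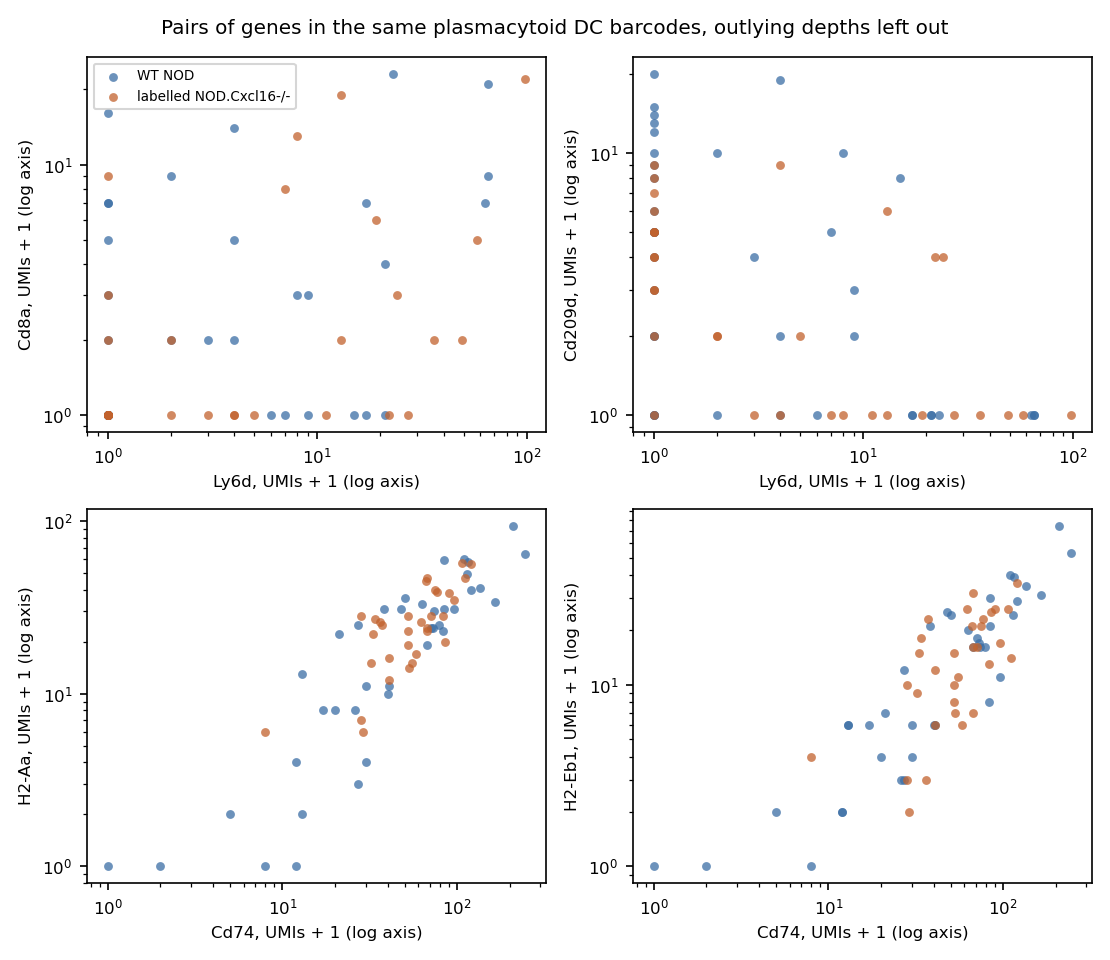
UMIs + 1 per core barcode on log axes for Ly6d with Cd8a, Ly6d with Cd209d, Cd74 with H2-Aa and Cd74 with H2-Eb1, 39 WT NOD points and 32 points of the library labelled NOD.Cxcl16-/-. Cells with the most Ly6d sit at or near 0 for Cd209d, and the class II pairs lie along a diagonal in both libraries.

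Gene by gene, the summed plasmacytoid DCs of the libraries were close. Of 1726 genes past the level filter, 6 (0.348%) were at least 2-fold higher in the library labelled NOD.Cxcl16-/- on the log2(CPM + 1) scale and 11 (0.637%) at least 2-fold lower, 17 (0.985%) in all, with a median log2 ratio of -0.01. These directions rest on the library labels, which the Cxcl16 counts did not check. The 6 higher genes were Krt18, Cxcl9, Rbm47, Grasp, Cct6a and Rrbp1. The 11 lower genes were Cebpb, Tmem176a, Dusp1, Iglc2, Ifi27l2a, Tbc1d4, Il1b, Mt1, Bcl2a1b, Cxcl2 and Lyz2. For 9 of the 17, at least 50% of the UMIs in the higher library lay in its deepest barcodes, and for 7 of the 17 in 1 barcode. The keratin Krt18 gave 82 UMIs, all in 1 barcode of 21920 UMIs. The chemokine Cxcl2 gave 214 UMIs in the WT NOD library, 178 of them in 1 barcode of 18731 UMIs, which also held 96 of 101 UMIs of the myeloid lysozyme Lyz2 and 77 of 122 UMIs of the cytokine Il1b. These differences therefore rest on single barcodes.

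**Figure D4:**
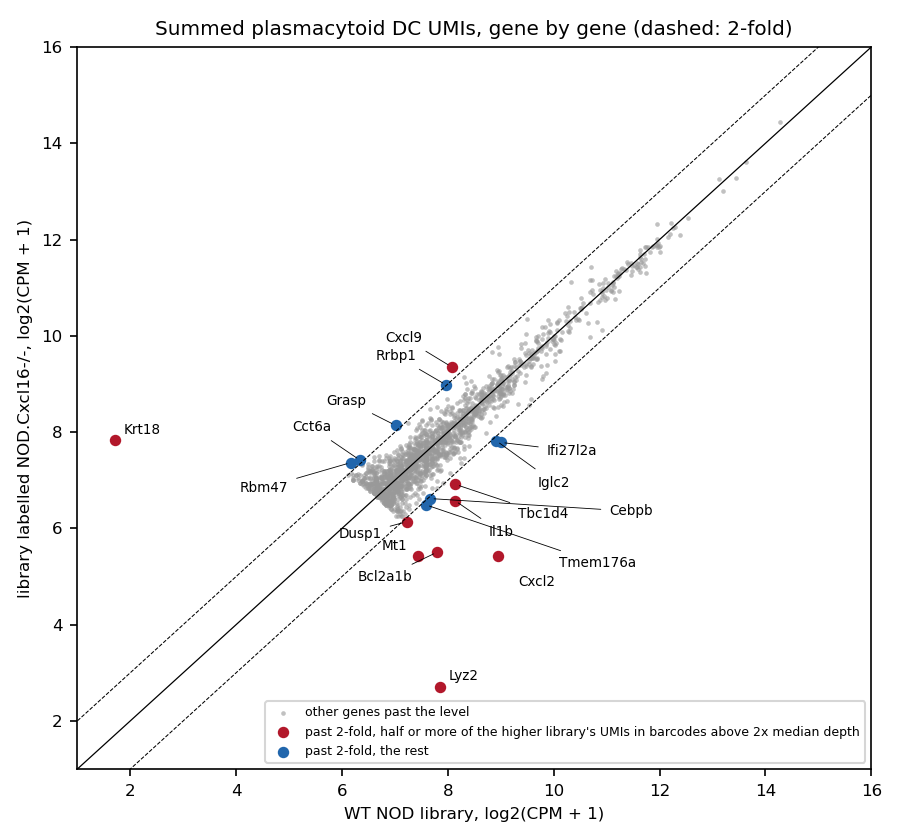
Summed level as log2(CPM + 1) of 1726 genes in plasmacytoid DCs of the WT NOD library (horizontal) and the library labelled NOD.Cxcl16-/- (vertical), with dashed lines at 2-fold. Red marks the 9 of 17 genes past 2-fold with at least 50% of their UMIs in the deepest barcodes of the higher library, and blue the rest.

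**Figure D5:**
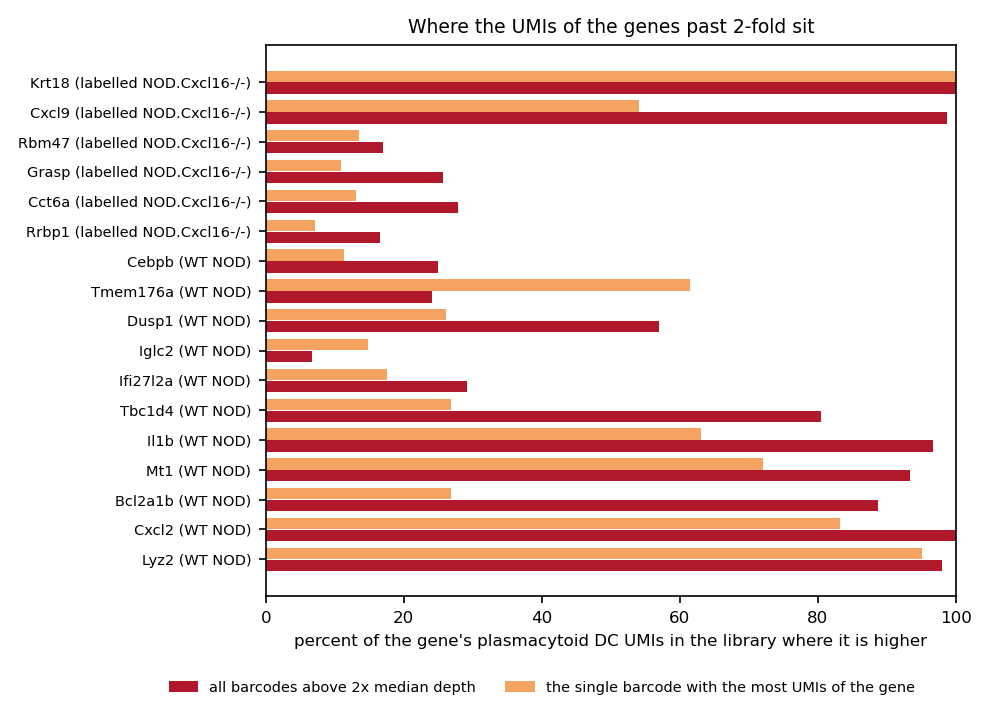
For the 17 genes past 2-fold, the percent (horizontal axis) of their plasmacytoid DC UMIs in the named higher library held by the barcodes above 2 times the median depth (dark bars) and by the barcode with the most (light bars). Krt18 sits at 100% in 1 barcode, and Rrbp1 has 7.18% in its highest barcode.

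Without the barcodes of outlying depth, 16 of 1725 genes (0.928%) were at least 2-fold higher and 13 (0.754%) at least 2-fold lower. Only 6 of the 17 genes stayed past 2-fold in the same direction, namely Rbm47, Grasp, Cct6a, Rrbp1, Tmem176a and Iglc2. Rbm47, an RNA-binding protein that shapes editing and splicing, was at 71.0 CPM (48.2 to 101) and 164 CPM (125 to 212), in 19 of 50 and 27 of 39 cells with at most 4 and 8 UMIs. Grasp, a scaffold of receptor traffic, was at 128 and 281 CPM, and Cct6a, a chaperonin subunit, at 80.2 and 170 CPM. Tmem176a, a membrane protein of DCs, had 51 of its 83 WT NOD UMIs in 1 barcode. Iglc2 was at 481 CPM (418 to 551) and 225 CPM (179 to 280). Its level also differed in B cells, at 1301 and 975 CPM, and in plasma cells, at 3295 and 1697 CPM, and their part in the result was not tested. A further 23 genes passed 2-fold in core barcodes only.

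Early-response genes had a median below 0, with members on both sides. Of 23 past the filter, 1 was at least 2-fold lower, Dusp1, a phosphatase induced by stress, beside 11 of all 1726 genes (0.637%). The log2 ratios ran from -1.09 to 0.80 with a median of -0.36, and -0.35 in core barcodes, where 1 of 22, Rel, was at least 2-fold higher and 3 lower, beside 16 (0.928%) and 13 (0.754%) of 1725 genes. Values of Dnajb1, a heat-shock cochaperone, were 344 and 537 CPM, of the chaperone Hspa8 1635 and 2286 CPM, and of Nfkbia, which encodes the NF-kappaB inhibitor, 971 and 1213 CPM. Jun, an AP-1 subunit, had 0, 4 and 27 UMIs as lowest, median and highest in the WT NOD library and 0, 2 and 20 in the other, so the cells overlapped. Its level was 758 CPM (679 to 844) and 409 CPM (345 to 481). The log2 ratio was -0.89, and -1.18 in core barcodes. The activation marker Cd69 was at 639 and 384 CPM. T cells of the same libraries had 187 and 152 CPM of Jun and type 1 DCs 543 and 384 CPM. Jun was thus also lower in those cells of that library, and what these share was not tested. Clec12a, Clec10a and Cd209d, named after their values were seen, were at least 2-fold lower in core barcodes and less than 2-fold lower over all barcodes. Clec12a, an inhibitory receptor, was at 359 and 174 CPM in core barcodes, and at 300 and 175 CPM over all. Clec10a, a galactose-binding lectin, was at 327 and 119 CPM in core barcodes, and at 261 and 142 CPM over all. Cd209d was at 548 and 263 CPM, and at 424 and 250 CPM. Other lectin-type receptors differed less, such as Klra17 at 373 and 445 CPM and Klrd1 at 408 and 356 CPM over all barcodes.

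Markers of B cells, macrophages and T cells were far below those cells' own levels. The rule had limited Cd79a, C1q and Cd3 UMIs, and those cells were gated on such genes. The gap was thus partly set in advance and is a description. The 10-gene B-cell list summed to 61.8 and 36.2 CPM, against 7795 and 7394 CPM in B cells, with 7 of the 10 detected in either group. The 12-gene macrophage list summed to 536 and 256 CPM against 23838 and 26957 CPM in macrophages, with Cd68 giving 252 and 242 CPM of this, Lyz2 231 and 5.56 CPM, and Apoe and Mrc1 at 0 UMIs. The 15-gene T and NK list summed to 511 and 448 CPM against 7625 and 7484 CPM in T cells, with 408 and 356 CPM from Klrd1 and none from Trac or Ncr1. The 24-gene pancreas list summed to 518 and 629 CPM, and to 154 and 356 CPM in core barcodes, against 216 and 338 CPM in T cells. The 16-gene conventional DC list summed to 1553 and 1391 CPM, near the 1838 and 1888 CPM of Cd209a or Clec10a DCs, with Cadm1 giving 435 and 484 CPM of it. The 12-gene monocyte and neutrophil list summed to 4040 and 3611 CPM, the highest of the 8 populations, with Plac8, which is also on the plasmacytoid DC list, giving 3090 and 2670 CPM and S100a8, S100a9 and Fn1 at 0 UMIs. The 12-gene plasma-cell list summed to 2316 and 1878 CPM against 431990 and 400018 CPM in plasma cells, mostly from Slpi and Igkc. The list of innate lymphoid and mast cells was low (101 and 72.3 CPM). That of stroma, endothelium and red cells summed to 158 and 214 CPM, the highest of the 8 populations, with B cells next at 133 and 107 CPM. The part of other cell types in the results was not tested. Ins2 was at 321 and 292 CPM in plasmacytoid DCs and rested on 1 barcode in the WT NOD library, which held 116 of its 140 UMIs. In core barcodes Ins2 was at 57.7 and 159 CPM, a log2 ratio of 1.45, against 85.5 and 140 CPM in T cells, and the part of free RNA was not tested. The WT NOD barcode with most Ins2, the deepest of its group at 21446 UMIs, held no Ccr9 and no Tcf4 UMI and was marked by the doublet score.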

How the data were processed

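The deposited matrices hold UMI counts per gene and barcode, whole numbers with no normalisation by the authors. The submitters' processing notes name Cell Ranger 7.0.1 and build mm10; whether intronic reads were counted is not given in the sources used here. Both libraries were read through the labels, 1 sample per group, with group and genotype confounded with library. Of 32285 gene IDs, 32158 were matched to GENCODE M21 (GRCm38) for positions; promoters come from RefSeq's GRCm38.p6 table. The members, the gene lists and the gates were chosen with earlier results of these data known. Counts were summed over the cells of a library and scaled to CPM by total UMIs; ratios are log2(CPM + 1), with exact Poisson intervals on counts and exact binomial (Clopper-Pearson) intervals on shares, at 95%. Genes were compared at a mean of at least 100 CPM, and 2-fold was the limit for a count. No gene was tested, since cells are not replicates. The 7 other populations were gated on UMIs of their markers (type 1 DCs on Xcr1 or Clec9a, other DCs on Cd209a or Clec10a, or on Ccr7 with Fscn1, B cells on Cd79a and Cd79b, plasma cells on Jchain and Mzb1, macrophages on C1q genes, T cells on Cd3 genes), with no Siglech UMI. Doublets were scored against simulated pairs and marked at 0.8% for each 1000 barcodes; marked barcodes were kept, and removal was an alternative. Genes named outside the lists were the 15 largest ratios each way, and the 25 most above other populations; the genes past 2-fold in core barcodes and those of the Ly6d split were named after their values were seen. Scripts were tested on simulated data. Python 3.11.15, numpy 2.4.6, scipy 1.17.1, pandas 2.3.3 and scikit-learn 1.9.0 were used. Reads of NOD mice were mapped to another strain's genome, which can bias polymorphic families (immunoglobulin, class II, Ly6 and Klk genes). Some genes of the lists are not reported here by name.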

Additional observations from a re-analysis of the deposited data

How the results depend on the processing

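The share of plasmacytoid DCs stayed within its main interval under 7 alternatives in each library (Siglech minimum, complement limit, gene minimum, mitochondrial limit, doublet removal). Counts of genes past 2-fold did not hold. Against 6 genes higher and 11 lower, the higher count was 16 with at least 1 Siglech UMI, 15 with marked doublets removed, 23 with the mean of each cell's CPM and 16 without barcodes of outlying depth, an alternative chosen after seeing the data. Scaling without immunoglobulin, T-cell receptor, mitochondrial, ribosomal, haemoglobin and pancreatic genes gave 14 higher and 20 lower, with more genes past the level. Thinning cells to 2000 UMIs gave 88 and 77. Level filters of 50 and 200 CPM gave 42 and 42, then 3 and 4, and no level filter gave 2117 and 2384, since low counts pass 2-fold by counting error. With at least 1 Siglech UMI, the log2 ratios of Bcl2a1b, Il1b, Mt1 and Tbc1d4 turned to 0.18, 0.25, 0.52 and 0.59, and with at least 3 Siglech UMIs that of Tmem176a turned to 0.49. Without barcodes of outlying depth those of Bcl2a1b, Cxcl2, Il1b and Lyz2 turned to 0.33, 4.94, 2.76 and 0.18 and that of Cxcl9 to -3.87. These alternatives move a few barcodes in or out, and the cause beyond that was not tested. Of the planned settings besides the main one, 12 touch single genes, and both Siglech settings above are among them. Over these 12, 2681 log2 ratios stayed within counting error, 242 moved beyond it and 5 reversed, and of list medians 206 stayed and 10 moved. All 18 gene lists with at least 5 members past the level had a median log2 ratio within 0.5 of 0. Levels under about 3 UMIs, 6.87 and 8.34 CPM, are below what these groups can show. No paired analysis was possible because each group has 1 library.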
